A study of Mus musculus with 8 samples.

Results

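The insulin-like growth factor genes measured in cholesterol-loaded macrophages are described here: the ligands *Igf1* and *Igf2*, the receptors *Igf1r* and *Igf2r*, and the binding proteins *Igfbp3*, *Igfbp4*, *Igfbp6* and *Igfbp7*. Members were taken by gene symbol, which gave 8 of 30789 genes on the array and 18 of its 45281 probes. *Igf1* was picked by the study on these same arrays for its level with Ac-LDL. The other members were chosen by a reader who knew the results of that contrast. Differences of the members between the groups are therefore given as a description. Tests of them appear only as counts, from which nothing is read.

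The cells were peritoneal macrophages elicited with thioglycollate, an irritant broth, from C57/BL6 mice with an age of 8 weeks. One group of 4 samples was incubated for 24 h with 120 µg/ml of acetylated low-density lipoprotein (Ac-LDL), a modified lipoprotein that scavenger receptors take up, and a control group of 4 samples was mock treated. According to the study's methods, peritoneal macrophages were kept before treatment in medium conditioned by L-929 cells, a fibroblast line that secretes the macrophage growth factor CSF1. The samples are labelled as biological replicates 1 to 4 of each group, but the labels do not say whether each came from a separate animal or culture, so the spread between them may be partly technical. Each array was an Illumina Mouse WG-6 v2.0 bead chip, with replicates 1 and 2 of both groups on one slide, called the first here, while replicates 3 and 4 shared another, called the second.

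IGF1 is a secreted growth factor that signals through the receptor tyrosine kinase IGF1R to the PI3-kinase and MAP kinase pathways, and macrophages are a known local source of it in wounds, muscle repair and the vessel wall. IGF2 binds the same receptor, while IGF2R, also the cation-independent mannose 6-phosphate receptor, takes IGF2 up for degradation and carries lysosomal enzymes. The IGF-binding proteins hold the ligands in extracellular fluid and control how much reaches the receptor, and IGFBP7 binds IGFs weakly.

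The *Igf1* probes lie in different parts of the gene, which is why their target sequences are given. One probe of 50 bases (ILMN_1225565) matches coding sequence that runs from the last codons of the mature hormone into the E peptide, which is cut off the precursor, at 10:87376480-87376529 on the plus strand. Another (ILMN_2769884) begins 17197 bases further along, at 10:87393677-87393726, and matches the same transcript record, that of transcript variant 1. The remaining one (ILMN_2647594) lies 52437 bases before the start of the coding probe, at 10:87324043-87324092, and was designed on the record of transcript variant 2. The build of these coordinates is not given in the sources used here. The coding probe is shown whole and the others by their first 30 bases.
*Igf1* ILMN_1225565: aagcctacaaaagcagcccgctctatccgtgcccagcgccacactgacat
*Igf1* ILMN_2769884: gcaccttgcaaaagtggtcctggcgtgggt
*Igf1* ILMN_2647594: cctcagttttgtgttcacctcggcctcata

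All 3 *Igf1* probes were brighter on average with Ac-LDL, by 1.33-fold to 1.52-fold, and all 3 were higher in 4 of 4 pairs of same-numbered arrays, against a share of 11.5% of the 17122 probes tested. The values below are log2 normalized intensities, given for control replicates 1 to 4 and then for Ac-LDL replicates 1 to 4. The coding probe read 11.40, 11.58, 11.89 and 11.65 on the control arrays and 12.12, 12.04, 12.10 and 11.89 on the Ac-LDL arrays. Its lowest Ac-LDL array stood above its highest control array by only 0.006952. The mean was 11.63 ± 0.20 in control and 12.04 ± 0.10 with Ac-LDL (SD, n = 4), a log2 difference of 0.41 with a standard error of 0.12 and a 95% interval from 0.15 to 0.67. With whole samples of RNA, more cells that express a gene cannot be told apart from more RNA per cell.

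The downstream probe ILMN_2769884 gave 9.60, 9.78, 10.28 and 10.27 in control and 10.64, 10.26, 10.71 and 10.37 with Ac-LDL. The groups overlapped, since Ac-LDL replicate 2 lay below control replicates 3 and 4. Its log2 difference was 0.51, with a standard error of 0.18 and a 95% interval from 0.12 to 0.90. The variant 2 probe ILMN_2647594 gave 9.31, 9.33, 10.07 and 9.90 in control and 10.19, 9.97, 10.59 and 10.24 with Ac-LDL. Only Ac-LDL replicate 2 was below a control array, replicate 3, and the log2 difference was 0.60, with a standard error of 0.20 and a 95% interval from 0.16 to 1.04. The 3 intervals overlap, and whether the probes differ in their change was not tested.

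For each *Igf1* probe the difference was larger on the first slide than on the second. The coding probe differed by 0.59 on the first slide and 0.23 on the second, the downstream probe by 0.76 and 0.26, and the variant 2 probe by 0.77 and 0.43 (log2). Control replicates 1 and 2, both on the first slide, were the lowest of the 8 arrays for all 3 probes. With slide as the comparison and treatment as covariate, a measure that played no part in the choice of the genes, the variant 2 probe was higher on the second slide by a log2 difference of 0.50 with a standard error of 0.11 (limma, adjusted p = 0.0115). The coding probe differed between slides by 0.10 (adjusted p = 0.546) and the downstream probe by 0.34 (adjusted p = 0.0951). Across the 8 arrays, which share slides and treatment groups, the coding probe had a Pearson correlation of 0.910 with the downstream probe and 0.872 with the variant 2 probe.

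**Figure D1:**
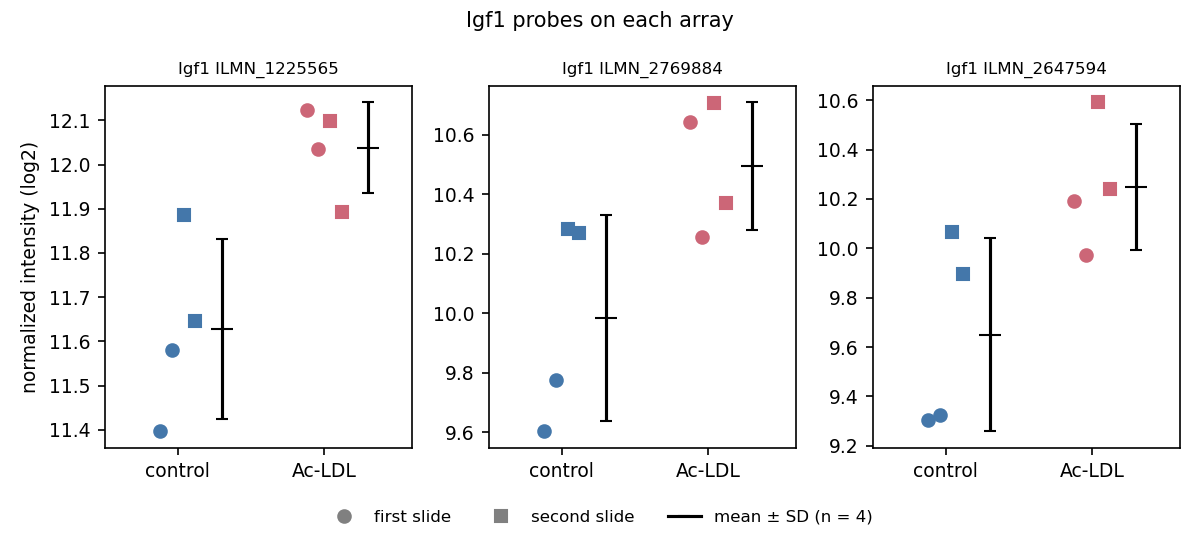
Log2 normalized intensity of the 3 *Igf1* probes on each of the 8 arrays, with control in blue, Ac-LDL in red, circles for the first slide and squares for the second; bars are mean ± SD (n = 4) and each panel has its own axis, which does not start at 0. The coding probe's lowest Ac-LDL array sits just above its highest control array, and the other 2 probes overlap.

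*Igf2*, the fetal growth ligand, was dim, with deposited intensities from 74.5 to 183. Its probe (ILMN_2597769, 7:149836761-149836810, minus strand) read 7.12, 6.87, 5.52 and 6.46 in control and 6.73, 6.63, 5.86 and 6.77 with Ac-LDL. The groups overlapped over most of their range, and the lowest array of each was replicate 3. The log2 difference of 0.004 had a standard error of 0.33 and a 95% interval from -0.73 to 0.73, and it was -0.32 on the first slide and 0.33 on the second. The slide difference itself was -0.68 (limma, adjusted p = 0.0669).

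*Igf1r*, the signalling receptor, has a dim probe at the far end of its transcript record (ILMN_1249824, 7:75377867-75377916) and a dimmer one in the coding sequence of the kinase part (ILMN_1239663, 7:75359838-75359887), which is shown whole.
*Igf1r* ILMN_1239663: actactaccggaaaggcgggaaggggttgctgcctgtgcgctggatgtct
The first of these probes gave 6.22, 6.24, 6.34 and 6.52 in control and 6.37, 6.42, 6.56 and 6.53 with Ac-LDL. It was higher in 4 of 4 pairs, yet the groups overlapped, and the log2 difference was 0.14 with a standard error of 0.10 and a 95% interval from -0.09 to 0.36. With median scaling it was higher in 2 of 4 pairs, by a mean of 0.05, with cyclic loess in 3 of 4, and in the deposited intensities in 2 of 4, by 0.004. The coding probe gave 5.14, 5.43, 5.19 and 5.25 in control and 5.43, 5.23, 5.37 and 4.96 with Ac-LDL, a difference of -0.01 with a 95% interval from -0.28 to 0.26. Its deposited intensities, 55.2 to 68.9, were close to the array medians of 42.5 to 46.4, so a change in *Igf1r* smaller than these intervals was not detectable here.

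*Igf2r*, the receptor that clears IGF2, was brighter than background by both of its probes, which lie near the end of the transcript record. The probe ILMN_2931095 (17:12525995-12526044, minus strand) gave 8.45, 8.60, 9.23 and 8.93 in control and 8.84, 8.83, 9.40 and 9.15 with Ac-LDL. The probe ILMN_2931096 (17:12526239-12526288, minus strand) gave 7.69, 7.83, 8.36 and 8.12 in control and 8.32, 8.08, 8.83 and 8.35 with Ac-LDL. By both probes each Ac-LDL array was above the control array of its number, while the groups as a whole overlapped. The log2 differences were 0.25, with a 95% interval from -0.17 to 0.67, and 0.40, with a 95% interval from -0.01 to 0.81. With the replicate number as a block, which takes same-numbered arrays as pairs, the intervals ran from 0.07 to 0.44 and from 0.18 to 0.61. In the deposited intensities both probes were higher in 3 of 4 pairs, by a mean of 0.09 and 0.22. For ILMN_2931095 the difference was 0.12 with median scaling, 0.13 with array weights, 0.13 without control replicate 1, 0.14 without Ac-LDL replicate 3 and 0.39 without control replicate 3. For ILMN_2931096 it was 0.25 without Ac-LDL replicate 3.

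Both *Igf2r* probes also differed between the slides. ILMN_2931095 was higher on the second slide by a log2 difference of 0.50 with a standard error of 0.10 (limma, adjusted p = 0.00630), and ILMN_2931096 by 0.43 with a standard error of 0.12 (adjusted p = 0.0264). The call of ILMN_2931096 was lost when control replicate 1, 2 or 3 or Ac-LDL replicate 2 or 3 was left out, with an adjusted p of up to 0.0849. Of the 14 tested probes of the IGF genes, 3 differed between slides, the variant 2 *Igf1* probe and both *Igf2r* probes, and all 3 were higher on the second slide. Among all probes 23.6% differed between slides and 11.7% were higher on the second. Some macrophage markers moved with these probes. Of 9 marker symbols on the array 8 were tested and 5 were higher on the second slide. Among these were *Emr1* (F4/80) by 1.19 and *Csf1r* by 0.79 (log2), while *Msr1* was detected on 0 arrays. Lysozyme is listed under 2 symbols, *Lyzs*, higher by 0.61 (limma, adjusted p = 0.0029), and *Lyz2*, which differed by 0.14 (adjusted p = 0.208). Also not called were *Cd68*, at 0.06 (adjusted p = 0.670), and *Mertk*, at 0.38 (adjusted p = 0.0835). The summed macrophage marker level, on the linear scale, was 41560 to 45090 on the first slide and 50350 to 53350 on the second. Between treatment groups it overlapped, at 41560 to 53350 in control and 42670 to 52920 with Ac-LDL. Lysozyme gave most of this sum, with control means of 14.73 for *Lyz2* and 12.84 for *Lyzs* (log2). Taken singly, 4 of the 8 tested markers had a higher and 4 a lower mean with Ac-LDL. *Mertk* was higher with Ac-LDL by 0.56 and was called with the replicate block (limma, adjusted p = 0.0364). It was not called without a block or with the slide block. *Cd14* was lower by 0.48 and was called in none of these fits. Of 8 tested fibroblast markers 3 were lower on the second slide, with log2 differences of -0.99 for *Lum*, -0.45 for *Fbln1* and -0.41 for *Col1a1*. The other tested ones were not called, and of these only *Col3a1* was higher, by 0.29 (limma, adjusted p = 0.174). Fibroblast levels summed to 12750 to 14750 on the first slide and 10710 to 13560 on the second. *Dcn* (decorin) gave most of that sum and differed by -0.15 (limma, adjusted p = 0.334). Of 4 tested mesothelial markers 1, *Krt8*, was higher, by 0.35. The others were not called and differed by -0.17 for *Upk3b*, -0.18 for *Krt19* and -0.06 for *Krt18*. The part of these markers in the slide differences was not tested.

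**Figure D2:**
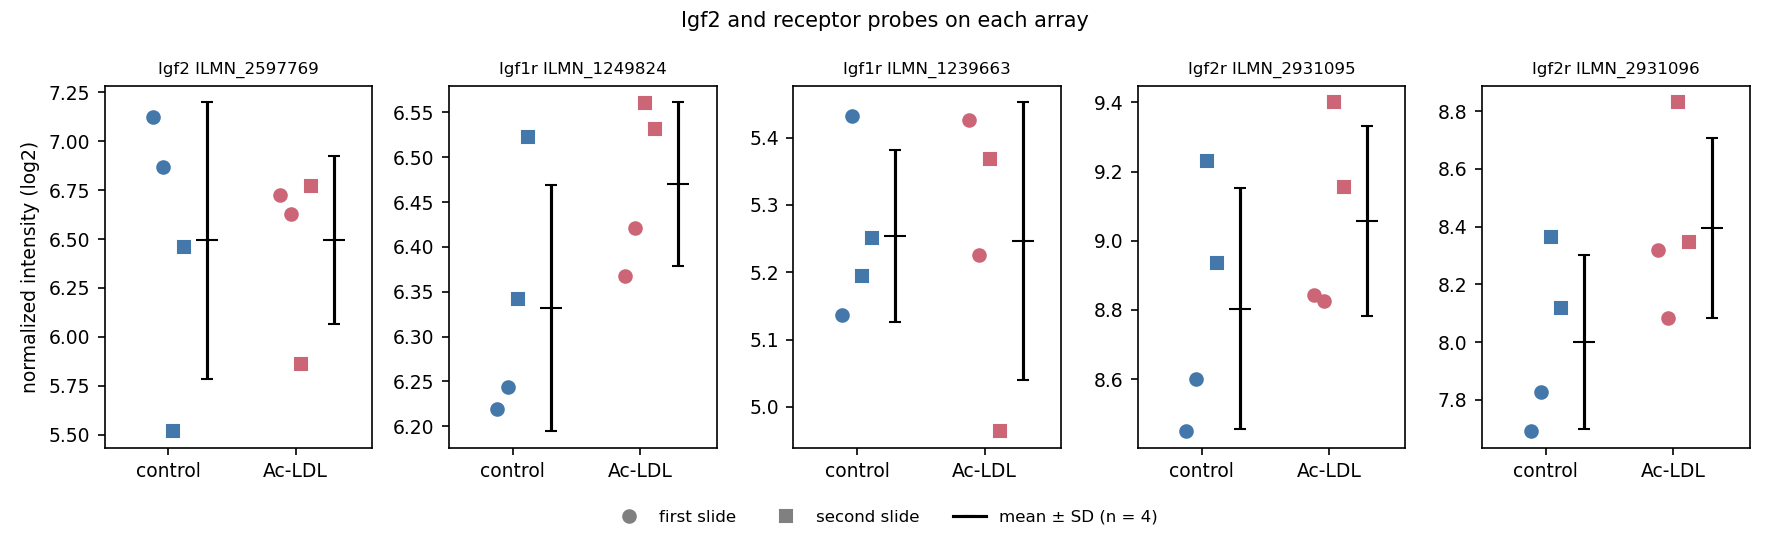
Log2 normalized intensity of the *Igf2*, *Igf1r* and *Igf2r* probes on each array, with control in blue, Ac-LDL in red, circles for the first slide and squares for the second; bars are mean ± SD (n = 4) and the axes differ between panels. Squares lie above circles of the same group for both *Igf2r* probes, and the 2 groups overlap in every panel.

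**Figure D3:**
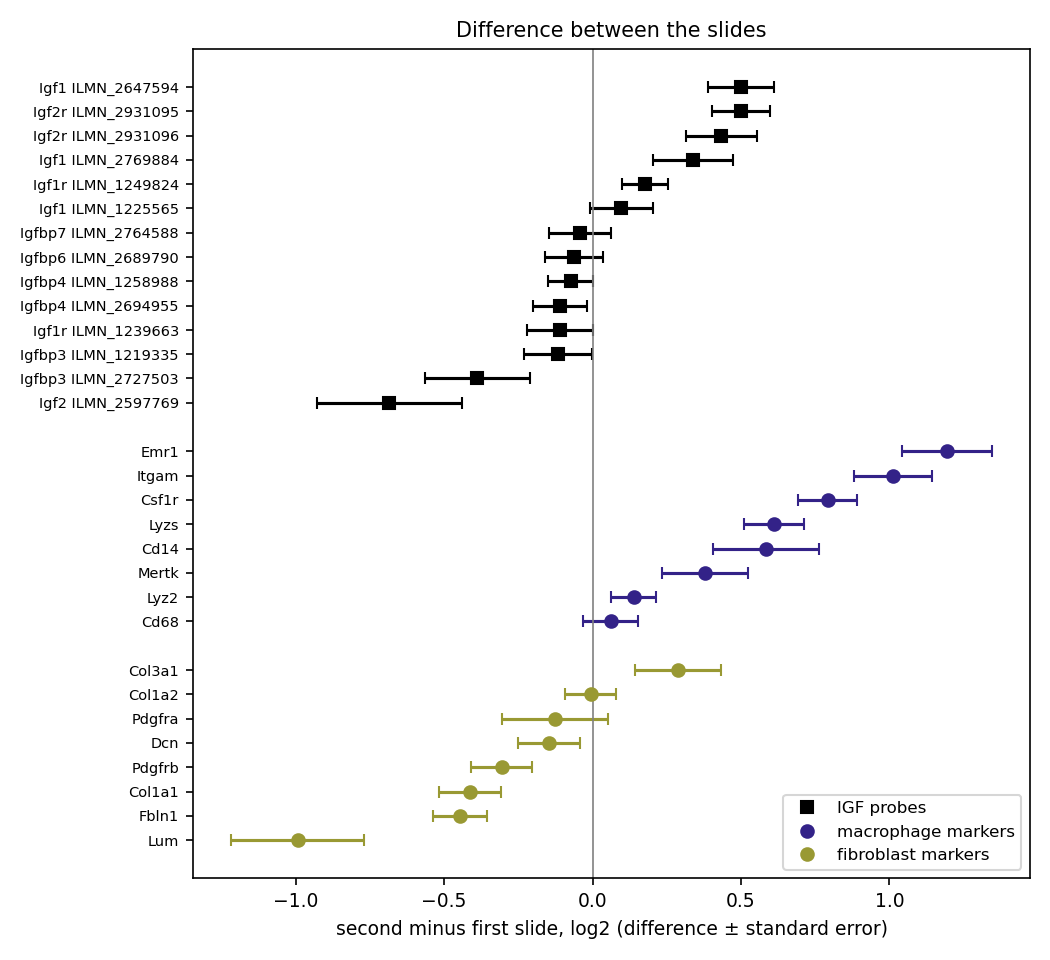
Log2 difference between the second and the first slide for each tested IGF probe (squares), from the fit with treatment as covariate. Circles are the tested macrophage and fibroblast markers, and bars are the difference ± its standard error, not a 95% interval. *Igf1* ILMN_2647594 and both *Igf2r* probes have adjusted p values of 0.0115, 0.00630 and 0.0264.

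Among the binding proteins, *Igfbp4* had a higher mean with Ac-LDL and intervals above 0. *Igfbp7* had a lower mean with an interval that includes 0, and *Igfbp3* and *Igfbp6* had intervals that reach well to both sides of 0. IGFBP4 is a binding protein that is cut by the protease PAPP-A to free its ligand. Its brighter probe (ILMN_1258988, 11:98913812-98913861, plus strand) read 11.57, 11.53, 11.36 and 11.50 in control and 11.76, 11.71, 11.71 and 11.70 with Ac-LDL. The other *Igfbp4* probe (ILMN_2694955) read 9.82, 9.86, 9.64 and 9.61 in control and 10.05, 9.99, 10.16 and 9.87 with Ac-LDL. By both probes the 4 Ac-LDL arrays lay above the 4 control arrays. The log2 differences were 0.23, with a standard error of 0.09 and a 95% interval from 0.04 to 0.42, and 0.29, with a standard error of 0.10 and a 95% interval from 0.06 to 0.52.

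This separation depended on the normalization. In the deposited intensities, before any normalization, the *Igfbp4* probes were higher with Ac-LDL in 2 of 4 pairs, and the log2 differences were 0.08 and 0.12. With scaling of each array to a common median they were 0.11 and 0.16 and the groups overlapped, as they did for the coding *Igf1* probe, whose difference was then 0.29. This scaling also moved the median difference of all tested probes, to -0.09 from 0.00 after quantile normalization. The downstream *Igf1* probe was then higher in 3 of 4 pairs, and the coding and variant 2 probes in 4 of 4. Median scaling gave differences of 0.38 for the downstream and 0.47 for the variant 2 probe. In the deposited intensities the *Igf1* pair counts were the same. The differences there were 0.25 for the coding, 0.34 for the downstream and 0.42 for the variant 2 probe. Of the 14 tested probes, 3 (the coding *Igf1* probe and both *Igfbp4* probes) had all Ac-LDL arrays above all control arrays after quantile normalization and also after cyclic loess normalization, and 0 had this with median scaling or in the deposited intensities. The share of all tested probes with this separation after quantile normalization was 2.11%.

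IGFBP3 is the main IGF carrier of blood, and its probes had differences of opposite sign, each with an interval that includes 0. The coding probe is shown whole (ILMN_2727503, 11:7109475-7109524, minus strand).
*Igfbp3* ILMN_2727503: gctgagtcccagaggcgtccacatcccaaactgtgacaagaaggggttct
It gave 9.97, 9.89, 9.06 and 9.27 in control and 9.86, 9.42, 9.90 and 9.36 with Ac-LDL, a log2 difference of 0.09 with a 95% interval from -0.40 to 0.58. The difference was -0.29 on the first slide and 0.47 on the second. The other probe (ILMN_1219335, 11:7106357-7106406) gave 9.79, 9.51, 9.26 and 9.68 in control and 9.45, 9.62, 9.40 and 9.56 with Ac-LDL, a log2 difference of -0.05 with a 95% interval from -0.33 to 0.22. Both probes had overlapping groups, with control replicate 3 as the lowest array.

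IGFBP6 binds IGF2 in preference to IGF1. Its probe also matches coding sequence and is shown whole (ILMN_2689790, 15:101978579-101978628, plus strand).
*Igfbp6* ILMN_2689790: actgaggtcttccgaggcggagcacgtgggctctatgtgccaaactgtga
It gave 9.66, 9.65, 9.34 and 9.60 in control and 9.73, 9.50, 9.62 and 9.73 with Ac-LDL. The groups overlapped, and the log2 difference was 0.08 with a standard error of 0.11 and a 95% interval from -0.15 to 0.31.

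*Igfbp7* was read by 1 probe and not by the other 4. The detected probe (ILMN_2764588, 5:77778385-77778434, minus strand) gave 12.12, 12.13, 12.00 and 11.92 in control and 11.71, 11.95, 11.73 and 12.09 with Ac-LDL. Ac-LDL replicate 4 lay among the control arrays and the other 3 Ac-LDL arrays were below control replicates 1 to 3. The log2 difference was -0.17 with a standard error of 0.11 and a 95% interval from -0.42 to 0.08. It was -0.28 with median scaling, which also moved the median difference of all tested probes to -0.09. In the deposited intensities it was -0.31, with Ac-LDL higher in 0 of 4 pairs.

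The other 4 *Igfbp7* probes were detected on 0 of 8 arrays, with deposited intensities from 29.2 to 41.9, below the median of every array. They cover positions 1025 to 1088 of the transcript record, just past the detected probe at 946 to 995, and share a core of 36 bases. By the numbering in the deposited annotation, ILMN_2634286 and ILMN_2762029 run as the record does, and ILMN_2447512 and ILMN_1245755 run opposite to it. The first 30 bases of the core are shown in both directions, because the 4 probes share them and the detected probe does not; capitals mark the letters AATAAA, the polyadenylation hexamer, which occur in the opposite direction.
Core as in the record: tacaaaaatttattatttacagaaaaaagc
Core in the opposite direction: gcttttttctgtaaatAATAAAtttttgta
Of these 30 bases 25 are A or T. Over their full length the 4 probes have a GC content of 20% to 24%, and the detected probe has 44%. Which strand the transcript has at these positions could not be checked here, and no level of *Igfbp7* was read from these 4 probes.

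**Figure D4:**
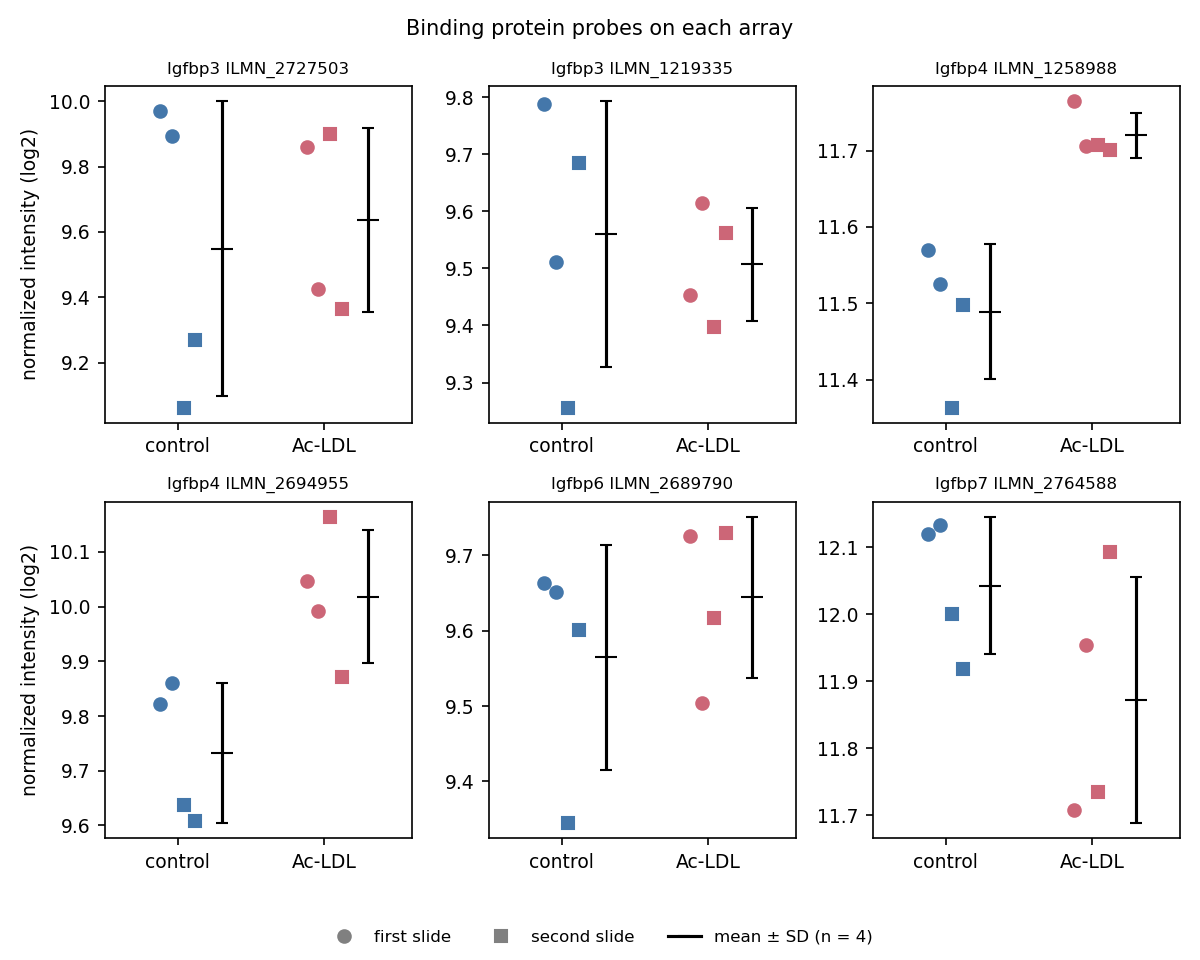
Log2 normalized intensity of the detected *Igfbp3*, *Igfbp4*, *Igfbp6* and *Igfbp7* probes on each array, with control in blue, Ac-LDL in red, circles for the first slide and squares for the second; bars are mean ± SD (n = 4) and the axes differ between panels. The groups are separate for the 2 *Igfbp4* probes only among those plotted, in these quantile-normalized values.

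Over the 14 tested probes, 11 had a higher mean and 3 a lower one with Ac-LDL. Their median log2 difference was 0.18, beside 0.00 over all tested probes. In the fit without a block, the 95% interval of 13 of the 14 lay within a log2 difference of 1 in either direction, and the exception was the variant 2 *Igf1* probe. After adjustment over all probes, limma called 0 of the 14, beside 0.0409% of all tested probes. It also called 0 with the replicate number as a block, where 0.444% of all probes were called, and 0 with the slide as a block, where 0.321% were. At an unadjusted p under 0.05, 5 of the 14 passed without a block against 5.2% of all probes, 7 with the replicate block against 13.8%, and 7 with the slide block against 12.1%. The methods' t-test, run on the same values, called 0 after adjustment and 5 before it, against 6.07% of all probes before it. Without a block the 95% intervals of the 3 *Igf1* and both *Igfbp4* probes lay above 0, and with either block those of both *Igf2r* probes did too. As these genes were chosen with this contrast known, nothing is read from these counts.

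**Figure D5:**
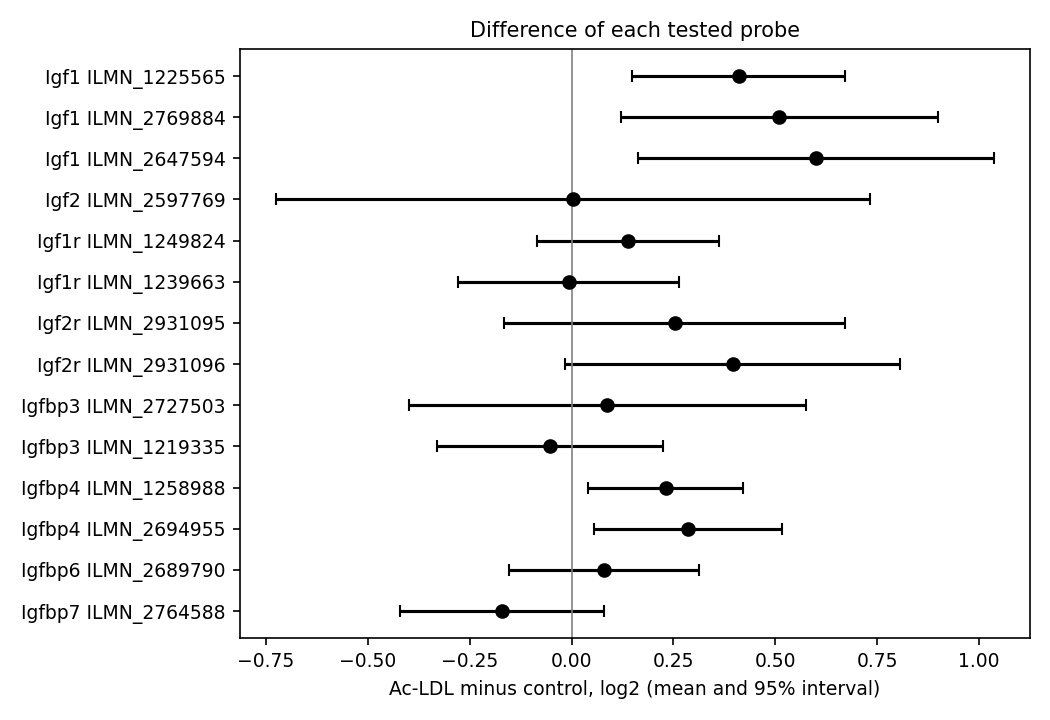
Log2 difference between Ac-LDL and control for each of the 14 tested IGF probes, with its 95% interval from the fit over all probes without a block (n = 4 per group). The 3 *Igf1* and 2 *Igfbp4* intervals lie above 0, and the remaining 9 include 0.

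The arrays were hybridized with RNA of adherent peritoneal cells, so markers of other cells that make IGF proteins were examined too. Of 9 fibroblast markers 8 were tested and *Postn* was detected on 0 arrays, and *Dcn*, which encodes the matrix proteoglycan decorin, had a control mean of 13.21 (log2). The summed fibroblast level on the linear scale was 10710 to 14750 in control and 11190 to 13730 with Ac-LDL. The summed level of 4 tested mesothelial markers, which line the peritoneal cavity, was 2414 to 3523 in control and 2778 to 3179 with Ac-LDL. Both lists overlapped between the groups. Which of these cells the *Igfbp* signals came from was not tested.

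The genes whose pattern was most like the coding *Igf1* probe were ranked among 12422 genes by Pearson correlation over the 8 arrays after subtraction of each slide's mean. The arrays share the treatment groups, so the ranking follows the contrast in part. The first 5 were *Naip5* (r = 0.990), an inflammasome sensor of flagellin, *Emp1* (0.988), an epithelial membrane protein, *D3Ertd300e* (0.985), *Fcgr3* (0.982), an Fc receptor for IgG, and *Ncstn* (0.981), a subunit of gamma-secretase. Without the subtraction *Naip5* ranked 49 and *Fcgr3* 1120. Among the IGF genes, *Igf2r* came closest by its brightest probe, with r = 0.942 and rank 65, and *Igfbp4* followed with 0.654. *Igfbp7* lay at the other end with r = -0.745, and *Igf2* had -0.469.

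The wider IGF pathway was read from lists of 77 genes on the array, of which 62 were tested. Of these 31 had a higher and 31 a lower mean with Ac-LDL, with a median log2 difference of -0.003 beside 0.00 over all probes. limma called 0 of them without a block, with the replicate block or with the slide block. At an unadjusted p under 0.05 there were 1, 11 and 8, or 1.61%, 17.7% and 12.9% of the 62, beside 5.2%, 13.8% and 12.1% of all probes. The methods' t-test gave 1 before adjustment, or 1.61% beside 6.07%, and 0 after it. Among the other binding proteins and their proteases, 3 of 6 had a higher mean, and *Igfbp1* and the acid-labile subunit *Igfals*, both mainly hepatic, were detected on 0 arrays. *Igfbp5* had a difference of 0.19 with a standard error of 0.48, and it differed between slides by -1.37 (limma, adjusted p = 0.0024).

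Of the insulin receptor and adaptor genes, 5 of 9 had a higher mean, with the docking protein *Gab1* at 0.21 ± 0.09 (log2 difference and standard error; adjusted p = 0.942). Of the PI3-kinase, AKT, FOXO and TOR genes, 9 of 19 had a higher mean, with the catalytic subunit *Pik3cd* at 0.39 ± 0.21 and the TOR inhibitor *Tsc1* at -0.32 ± 0.20. Of the Ras and MAP kinase genes, 5 of 10 had a higher mean and the differences ran to -0.21 ± 0.25 for *Map2k1*. The growth hormone and STAT list, which includes known upstream regulators of *Igf1* in liver among other genes, had 3 of 8 with a higher mean. *Stat5a* stood at 0.23 ± 0.15 and the growth hormone receptor *Ghr* at -0.11 ± 0.13. *Stat5b* was detected on 0 arrays and was not tested. None of the tested genes of these lists passed the adjusted threshold.

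The mannose 6-phosphate sorting genes, which serve the same traffic as *Igf2r*, had 5 of 7 with a higher mean and a median of 0.04. The adaptor *Gga1* stood at 0.22 ± 0.12. *H19*, the non-coding RNA imprinted opposite to *Igf2*, had a difference of 0.41 with a standard error of 0.30 and was higher on the second slide by 0.85 (limma, adjusted p = 0.0026). The IGF2 mRNA-binding proteins were lower in mean, *Igf2bp3* with a difference of -0.22 ± 0.23 and *Igf2bp2* with one of -0.09 ± 0.22, with slide differences of 0.59 and -0.63 that passed the threshold (adjusted p = 0.0094 and 0.0014).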

How the data were processed

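The authors deposited, for each probe and array, the mean bead intensity on the linear scale from BeadStudio, neither background-corrected nor normalized, with its bead standard error and bead number. They also deposited a detection p-value that ranks each probe against the negative controls. The authors' GeneSpring values were not used, and 0 per-sample columns were left out. Background correction and normalization followed neqc in limma 3.58.1 under R 4.3.3 (normexp with controls inferred from the detection p-values, offset 16, quantile normalization, log2). Probes detected (p-value no higher than 0.05) on 4 or more of 8 arrays were fitted with 2 groups and no block, and p values were adjusted by Benjamini-Hochberg at 0.05. Slides were compared with treatment as covariate and no term for the replicate number. Each slide holds only 2 replicate numbers, so the p values of all slide differences may be too small. The arrays detected 16679 to 17439 probes at a median of 43 to 44 beads, and correlated at 0.988 to 0.997. With 4 arrays a group, their number limits the precision.

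Gene identifiers of the 8 genes matched RefSeq's GRCm38.p6 table, whose coordinates were not used. Probe sequences and positions are those of the deposited annotation, and its build is not given in the sources used here. Every probe of the IGF genes was named, with the 5 genes most like *Igf1* and, of each pathway list, genes called in any fit and up to 3 with the largest difference. Not all of the latter are printed. The members and lists were chosen with earlier results of these data known. Same-numbered arrays deviated together across probes (r = 0.579, 0.479, 0.468 and 0.629), and the numbers were taken to pair the samples. Arrays of the same number also share a slide, and how much of these correlations goes with the slide was not measured. Marker levels were summed after return to the linear scale. The fit was tested on simulated data that held a slide effect and independent noise on each array, with no added effect of the replicate number. Alternatives changed the background correction, offset, normalization, detection filter, prior, array weights, blocks, the test and the arrays included.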

Additional observations from a re-analysis of the deposited data

Results flagged for a closer look

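One array stood apart from its group in 2 of the 28 groups of 4 arrays examined, which were the 14 tested probes in each treatment group. About 1.4 would be flagged by chance, since chance flags about 1 in 20 groups. For *Igf2* the Ac-LDL replicate 3 array read 5.86 (log2), while the other 3 Ac-LDL arrays read 6.63 to 6.77. For *Igfbp4* by ILMN_1258988 the Ac-LDL replicate 1 array read 11.76, while the others lay between 11.70 and 11.71.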

How the results depend on the processing

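Of all tested probes 7 were called with Ac-LDL, 1 higher and 6 lower. The count was 76 with the replicate block, 55 with the slide block, 26 with median scaling (1 higher and 25 lower), 16 with a trended robust prior, 16 with array weights, 0 without the detection filter and 0 with the methods' t-test after adjustment (1039 before it). It ran from 0 to 15 when arrays were left out, with 15 without control replicate 2, 6 without control replicate 1 and 0 or 1 without any other array. The replicate block changed no call of an IGF or pathway gene, and 0 of these were called under any alternative. IGF probes that differed between slides numbered 5 without Ac-LDL replicate 4, and 2 to 5 over all single arrays left out. *Igf1* ILMN_2647594 and *Igf2r* ILMN_2931095 differed between slides under all 14 alternatives. *Igf2r* ILMN_2931096 did so under 8 of them, as its call was lost without the detection filter and when control replicate 1, 2 or 3 or Ac-LDL replicate 2 or 3 was left out (adjusted p from 0.00976 to 0.0849 over the alternatives). *Igf1* ILMN_2769884, *Igf2* and *Igfbp3* ILMN_2727503 were called under 2, 3 and 2 of them. Without subtraction of slide means, 3 of the 5 genes most like *Igf1* were kept. Median scaling moved the median of all probes by -0.09, and 2 values moved by over 1 SD, the *Igfbp4* differences of 0.11 and 0.16. The sign of the *Igf2* difference turned in 10 of 22 alternatives, that of *Igf1r* ILMN_1239663 in 5 of 21, those of *Igfbp3* in 4 and 2 of 22 and that of *Igfbp6* in 1 of 22. It turned in none for *Igf1*, *Igf2r*, *Igfbp4*, *Igfbp7* and *Igf1r* ILMN_1249824. The causes were not tested. Dim probes, *Igf1r* and *Igf2* above all, are limited by signal over background.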
